A study of Sus scrofa with 24 samples.

Results

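The SLC25 genes encode the mitochondrial carrier family, a set of membrane proteins that exchange metabolites, nucleotides and cofactors across the inner mitochondrial membrane. Members were taken as all array probes whose gene name reads SLC25A followed by a number, which gave 58 probes for 24 genes. Each gene was represented by its brightest probe over 24 arrays, and a gene was kept when the scanner software placed that probe well above background in some tissue on each of its 6 arrays. That left 22 of the 24 genes, out of 9962 named genes tested on the whole array. Closest to the limit inside it were SLC25A22 and SLC25A23, well above background on 3 and 4 of the 6 Spleen arrays. Outside it, SLC25A25 was well above background on 2 of 6 Liver arrays and SLC25A30 on 1 of 6 Peyer arrays, and on 0 arrays elsewhere.

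RNA was measured on 24 one-colour microarrays from 6 crossbred pigs (Sus scrofa), 10 weeks of age, weaned at 28 days and fed without restriction. From each animal came liver (Liver), jejunum with a Peyer's patch (Peyer), jejunum lacking one (Jejunum) and spleen (Spleen), so n = 6 per tissue. No treatment or genotype separated the animals, and every sample is whole tissue, in which fewer cells of a type and less RNA per cell cannot be told apart.

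Each carrier moves its substrate by alternately opening to the cytosol and to the mitochondrial matrix, and most work as exchangers. Through them the matrix receives ADP, phosphate, acylcarnitines and amino acids and releases ATP, citrate, citrulline and aspartate. Liver relies on these exchanges for the urea cycle, gluconeogenesis, ketone formation and lipid synthesis, and the epithelium of the small intestine uses them to turn glutamine and glutamate into citrulline. The substrates given below are known mainly from human, mouse, rat and yeast proteins.

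A level is the log2 signal of a probe after subtraction of its array's 75th percentile (also in log2). Levels of different probes were not set against each other. Where 3 levels are given for a tissue, they are the lowest, the median and the highest of its 6 arrays. Differences are between tissue means on the log2 scale, with a standard error (SE) from limma. A carrier counts as called where the difference reached 1 in size with a Benjamini-Hochberg adjusted p below 0.05.

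The probes below belong to some of the carriers described, each printed 5′ to 3′ as spotted on the array. They read the citrate carrier, the phosphate carrier, both ADP/ATP carriers and a pyrimidine nucleotide carrier. The probe of SLC25A6 is 1 of its 7 and not the brightest, and the others are the probes that represent their genes. No base is marked by capitals.
SLC25A1: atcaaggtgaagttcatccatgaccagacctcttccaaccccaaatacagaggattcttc
SLC25A3: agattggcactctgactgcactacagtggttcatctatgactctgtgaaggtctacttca
SLC25A4: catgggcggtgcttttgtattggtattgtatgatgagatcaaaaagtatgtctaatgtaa
SLC25A6: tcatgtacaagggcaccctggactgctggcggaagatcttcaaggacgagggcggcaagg
SLC25A36: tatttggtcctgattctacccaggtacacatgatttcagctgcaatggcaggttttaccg

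The 75th percentile of the signal lay between 423.8 and 525.7 on Liver arrays, 876.7 and 2261.9 on Peyer arrays, 680.9 and 1001.3 on Jejunum arrays and 275.4 and 1098.1 on Spleen arrays. With 6 arrays per tissue, precision is limited by their number. Liver and Spleen shared 3 slides and Peyer and Jejunum shared 3 others, so for the other 4 pairs of tissues slide and tissue cannot be told apart. The summed markers followed the labels, with 6 hepatocyte genes averaging between 8.64 and 8.97 in Liver and 6 enterocyte genes between 6.76 and 7.07 in Jejunum. Over the Spleen arrays both means ranged more widely than in any other tissue. There the hepatocyte mean ran from -3.59 to 0.37 and the enterocyte mean from -5.25 to -1.49, and the cause was not tested. The Peyer array of animal 71 stood apart. Its mean of 5 B cell genes was -0.31, against 2.5 to 2.96 on the other Peyer arrays, its enterocyte mean was 6.92 against 5.32 to 5.9, and its nearest array was the Jejunum array of the same animal (r = 0.992 across probes).

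The limma F-test over 4 tissues passed for 21 of 22 carriers, where it passed for 91.5% of all genes, so the share of carriers lay near the background. The exception was SLC25A43 (adjusted p = 0.28). Liver held the highest mean of 13 carriers, Peyer of 1, Jejunum of 7 and Spleen of 1. Spleen held the lowest mean of 9 carriers, Peyer of 6, Liver of 4 and Jejunum of 3. These counts of highest and lowest means were not set beside a share over all genes. The range between the highest and the lowest tissue mean had a median of 1.36 over the carriers and 1.27 over all genes, and ran from 0.27 for SLC25A43 to 5.89 for SLC25A15. Called higher in Liver than in each other tissue were 7 of 22 carriers, where 10.5% of all genes were: SLC25A1, SLC25A4, SLC25A13, SLC25A15, SLC25A17, SLC25A27 and SLC25A32. The 7 became 6 with quantile normalization, 5 with normexp (a background correction) and 3 with the authors' values. Against Jejunum the call of SLC25A1 was also lost with the mean of the probes of each gene, at 0.12. With treat, a test against a difference of 1, SLC25A1, SLC25A15 and SLC25A17 lost that call. No carrier led in Peyer, Jejunum or Spleen by the limma calls, where 0.582%, 2.6% and 5.75% of all genes did.

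**Figure D1:**
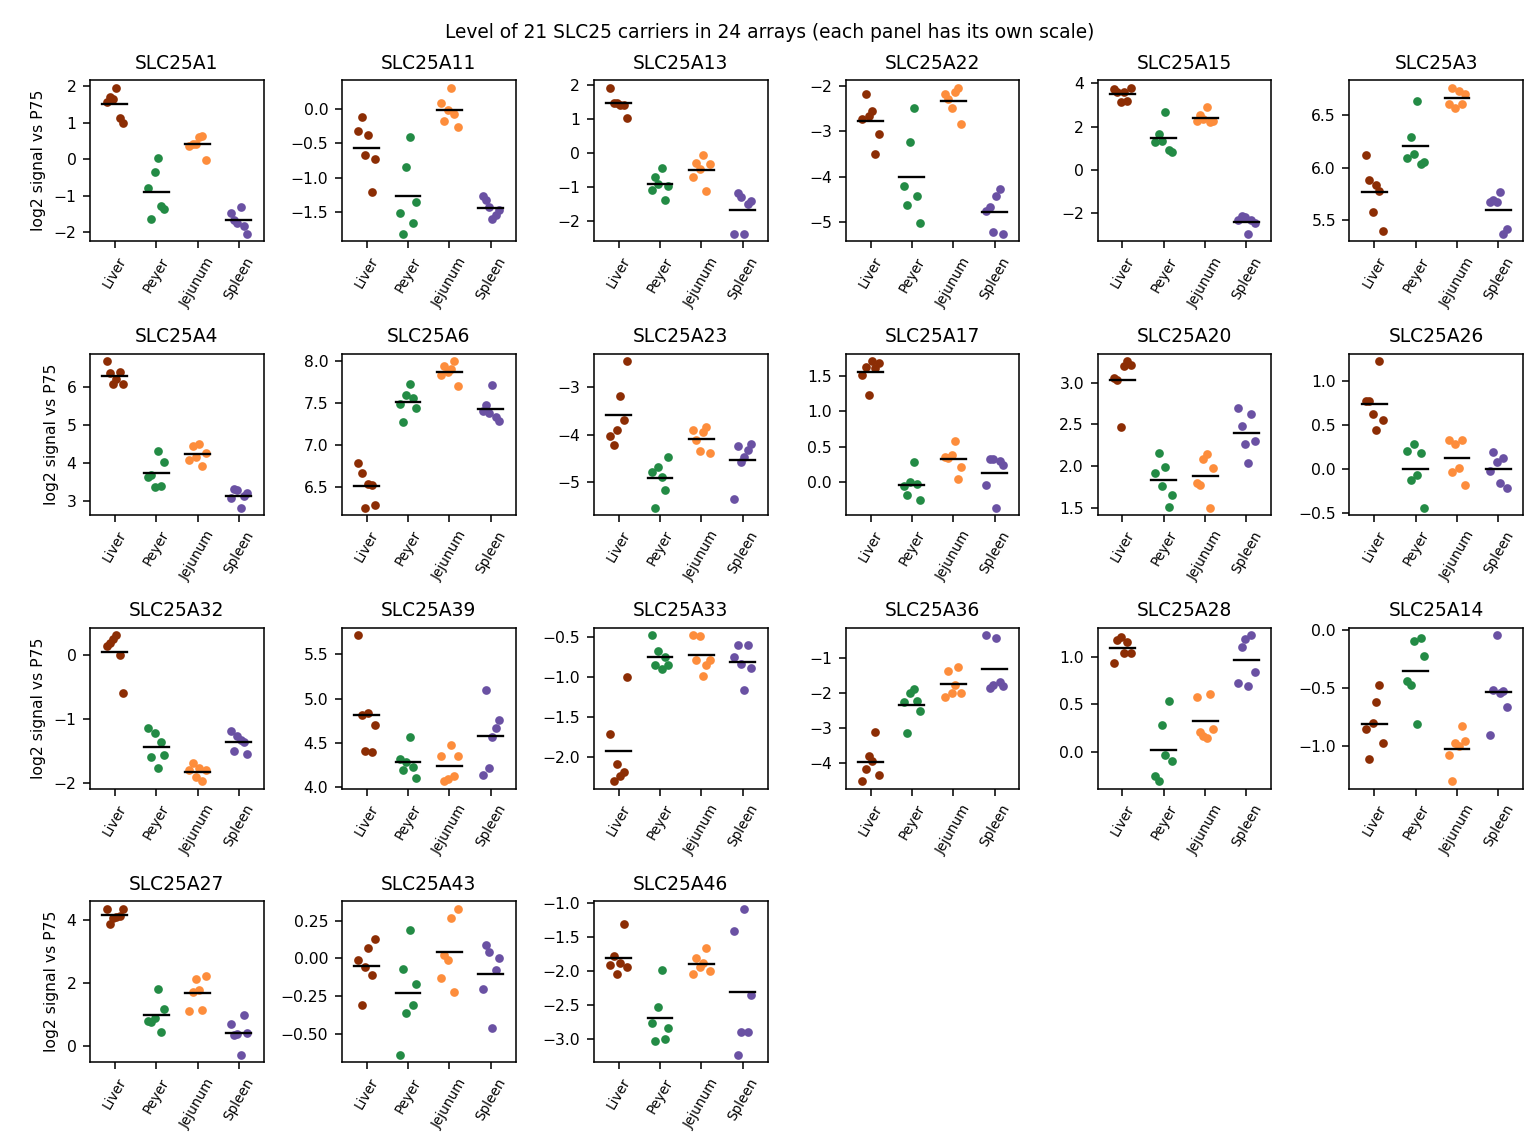
Log2 signal of 21 SLC25 carriers relative to the 75th percentile of each array, by tissue, with 1 point per animal and a black line at the mean of 6. Each panel has its own vertical scale. SLC25A15, SLC25A4 and SLC25A27 are highest in Liver with no overlap, and SLC25A6, SLC25A33 and SLC25A36 have their lowest means there.

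Liver was compared with Spleen within slides. Of the 22 carriers 8 were higher, 2 were lower and 12 were not called. That is 45.5% called, where 39.4% of all genes were called (18.2% higher and 21.2% lower). The median difference was 0.69 over the carriers and -0.1 over all genes. The largest folds of Liver over Spleen were 59.4 for SLC25A15, 13.2 for SLC25A27, 9.06 for SLC25A1, 8.95 for SLC25A4 and 8.88 for SLC25A13. Within slides 1, 2 and 3 the median over the carriers was 0.67, 0.64 and 0.85.

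The carriers of amino acids held the largest difference of the family. SLC25A15, which exchanges cytosolic ornithine for matrix citrulline in the urea cycle, had levels of 3.12, 3.6 and 3.8 in Liver, 0.84, 1.32 and 2.65 in Peyer, 2.19, 2.3 and 2.92 in Jejunum and -2.95, -2.31 and -2.13 in Spleen. No Spleen array reached an array of any other tissue, and no Liver array overlapped with Jejunum. The Liver minus Spleen difference was 5.89 ± 0.23 (SE, adjusted p = 2.1e-16), with 5.89, 5.93 and 5.85 within the 3 slides. SLC25A15 was the only carrier called lower in Spleen than in each other tissue, as 5.23% of all genes were.

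SLC25A13, or citrin, moves aspartate out of the matrix in exchange for glutamate and serves the urea cycle and the malate-aspartate shuttle. Its levels were 1.01, 1.45 and 1.92 in Liver, -1.39, -0.95 and -0.45 in Peyer, -1.12, -0.41 and -0.07 in Jejunum and -2.39, -1.46 and -1.2 in Spleen. Liver stood above every array of the other tissues. The Liver minus Spleen difference was 3.15 ± 0.22 (adjusted p = 1e-11), and 3.5, 3.29 and 2.67 within slides. SLC25A22, which imports glutamate with a proton, had levels of -3.5, -2.7 and -2.17 in Liver, -5.02, -4.32 and -2.48 in Peyer, -2.83, -2.24 and -2.04 in Jejunum and -5.25, -4.71 and -4.27 in Spleen. Liver and Jejunum overlapped and both lay above Spleen on every array. The Liver minus Spleen difference of SLC25A22 was 1.98 ± 0.32 (adjusted p = 8.3e-06), and it was 0.92 with the normexp background correction, below the limit for a call.

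SLC25A1 exports citrate to the cytosol, where it feeds fatty acid and sterol synthesis. Its levels were 0.99, 1.6 and 1.96 in Liver, -1.64, -1.04 and 0.04 in Peyer, -0.03, 0.41 and 0.64 in Jejunum and -2.05, -1.71 and -1.32 in Spleen. All Liver arrays lay above those of the other tissues, and all Jejunum arrays above Spleen. The Liver minus Spleen difference was 3.18 ± 0.23 (adjusted p = 1.7e-11), and 3.2, 3.34 and 3.0 within slides. A second, dimmer probe spelled slc25a1, outside the name rule, gave 1.3 for Liver minus Spleen and -0.85 for Liver minus Jejunum. It was well above background on only 2 of 6 Liver and 2 of 6 Spleen arrays. SLC25A11, which exchanges oxoglutarate for malate, had levels of -1.21, -0.53 and -0.12 in Liver, -1.82, -1.44 and -0.41 in Peyer, -0.26, -0.05 and 0.31 in Jejunum and -1.6, -1.46 and -1.27 in Spleen. Its Liver minus Spleen difference of 0.87 ± 0.2 (adjusted p = 0.00052) was below the limit for a call, although the groups did not overlap.

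The ADP/ATP carriers, which exchange matrix ATP for cytosolic ADP, were called in opposite directions in Liver minus Jejunum, although with the authors' values SLC25A4 was not called there, at 0.87. SLC25A4, the form known from heart and muscle, had levels of 6.06, 6.28 and 6.67 in Liver, 3.37, 3.65 and 4.3 in Peyer, 3.91, 4.21 and 4.48 in Jejunum and 2.82, 3.16 and 3.3 in Spleen. SLC25A6 had levels of 6.25, 6.52 and 6.78 in Liver, 7.27, 7.52 and 7.73 in Peyer, 7.71, 7.89 and 8.0 in Jejunum and 7.28, 7.39 and 7.72 in Spleen. Liver was thus the tissue with all of the highest SLC25A4 arrays and all of the lowest SLC25A6 arrays. For SLC25A4 Liver minus Spleen was 3.16 ± 0.15 (adjusted p = 1.2e-14), with 3.16 and 3.57 at its 2 probes. For SLC25A6 Liver minus Spleen was -0.93 ± 0.11 (adjusted p = 5.7e-08), just short of a call. The difference lay between -1.18 and -0.92 at its 7 probes. Of these, 2 were called lower, among them the probe printed above, at -1.04.

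The call of SLC25A6 depended on the processing. Its Liver minus Spleen difference was -1.5 with quantile normalization, -1.51 with normexp and -1.27 with the authors' values, all of them called, and -0.82 with median centring, which was not. In Liver minus Jejunum, SLC25A4 was higher by 2.07 ± 0.15 (adjusted p = 3.7e-11) and SLC25A6 lower at -1.38 ± 0.11 (adjusted p = 8.5e-11). All 7 probes of SLC25A6 were called lower there, between -1.53 and -1.33, and both probes of SLC25A4 were called higher, at 2.07 and 2.23. Another ADP/ATP carrier, SLC25A5, which the array lists under another name, averaged 3.34 in Liver, 5.21 in Peyer, 5.98 in Jejunum and 3.41 in Spleen.

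**Figure D2:**
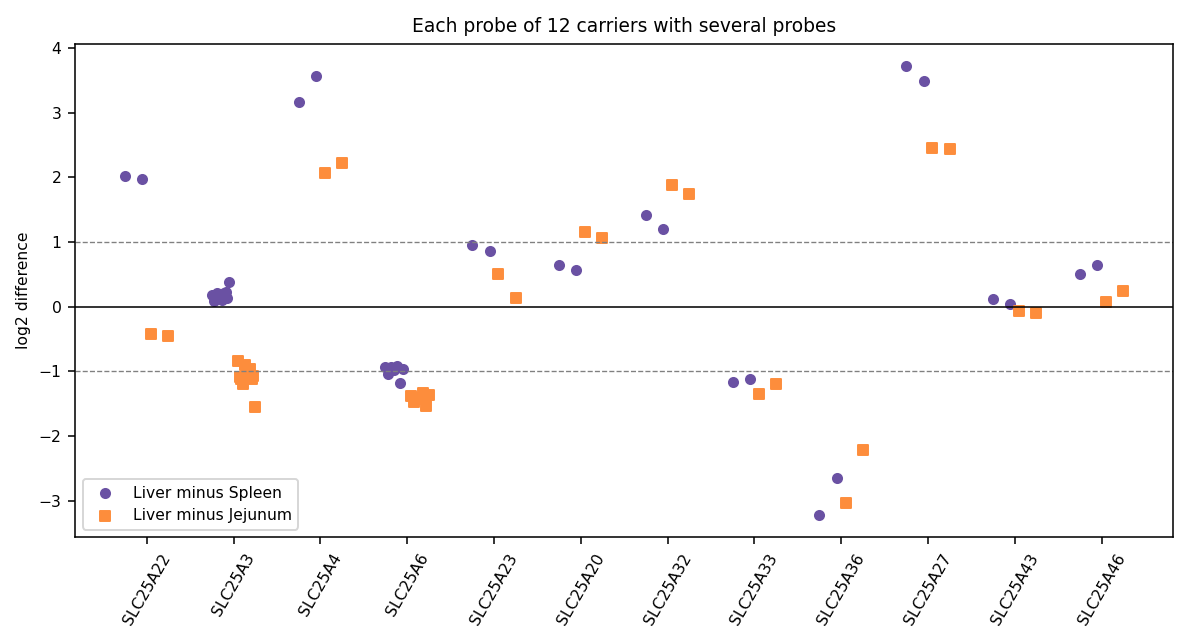
Log2 difference at each tested probe of 12 carriers with several probes, with circles for Liver minus Spleen and squares for Liver minus Jejunum, and dashed lines at 1 and -1. The probes of SLC25A4 lie between 2.07 and 3.57 and those of SLC25A6 between -1.53 and -0.92.

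Among the other carriers of phosphate and adenine nucleotides, SLC25A3 supplies phosphate for ATP synthesis. Its levels were 5.4, 5.8 and 6.12 in Liver, 6.03, 6.11 and 6.63 in Peyer, 6.57, 6.65 and 6.76 in Jejunum and 5.37, 5.67 and 5.77 in Spleen. Liver and Spleen overlapped, with a difference of 0.17 ± 0.12 (adjusted p = 0.23), and 11 probes gave 0.09 to 0.39. The direction turned in other settings, with -0.59 under quantile normalization (adjusted p = 2e-05), -0.57 under normexp (adjusted p = 4.4e-05) and -0.17 with the authors' values (adjusted p = 0.2). SLC25A17 sits in the peroxisome rather than the mitochondrion and exchanges adenine nucleotides and cofactors such as coenzyme A. Its levels were 1.23, 1.63 and 1.71 in Liver, -0.26, -0.04 and 0.28 in Peyer, 0.05, 0.35 and 0.58 in Jejunum and -0.36, 0.27 and 0.33 in Spleen. Every Liver array stood above the other tissues, and Liver minus Spleen was 1.43 ± 0.13 (adjusted p = 8.9e-10). SLC25A23, a calcium-regulated carrier of ATP-Mg and phosphate, differed by 0.95 ± 0.25 (adjusted p = 0.002), which was not called, and by 1.06 with median centring and 1.04 with quantile normalization, which were.

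Among carriers of cofactors and acyl groups, only SLC25A32 was called in Liver minus Spleen. SLC25A32 has been linked to folate and FAD import. Its levels were -0.6, 0.16 and 0.31 in Liver, -1.78, -1.47 and -1.14 in Peyer, -1.98, -1.81 and -1.69 in Jejunum and -1.55, -1.35 and -1.2 in Spleen. The Liver array of animal 75 was the lowest in its group and still lay above all arrays of the other tissues. The difference was 1.42 ± 0.14 (adjusted p = 2.7e-09), and 1.2 and 1.42 at its 2 probes. SLC25A20, which carries acylcarnitines inward for fatty acid oxidation, differed by 0.64 ± 0.15 (adjusted p = 0.00067) and SLC25A26, the S-adenosylmethionine carrier, by 0.74 ± 0.14 (adjusted p = 7.2e-05). Neither reached the limit for a call. SLC25A39, the glutathione carrier, differed by 0.24 ± 0.18 (adjusted p = 0.26), and its direction turned to -0.38 with quantile normalization (adjusted p = 0.039), -0.37 with normexp (adjusted p = 0.036) and -0.16 with the authors' values.

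Both pyrimidine nucleotide carriers were called lower in Liver than in each other tissue, as 8.79% of all genes were, and no other carrier was. With normexp and with the authors' values neither was called against all 3. SLC25A36 had levels of -4.51, -4.05 and -3.12 in Liver, -3.13, -2.24 and -1.89 in Peyer, -2.11, -1.89 and -1.26 in Jejunum and -1.86, -1.73 and -0.36 in Spleen. Liver lay below Jejunum and Spleen on every array and touched Peyer at 1 end. The Spleen arrays of animals 68 and 71 stood at -0.36 and -0.45, against -1.86 to -1.69 in the other animals. In animals 68 and 71 Liver minus Spleen was -4.15 and -3.49, against -2.54 to -1.43 in the others. The Liver minus Spleen difference was -2.65 ± 0.29 (adjusted p = 1.9e-08), and -3.23, -2.75 and -1.98 within slides. The other, dimmer probe of SLC25A36, well above background on 18 of 24 arrays, gave -3.22. Liver minus Peyer for SLC25A36 was -1.64 ± 0.29 (adjusted p = 2.5e-05), but -0.98 with normexp and -0.7 with the authors' values, neither of which was called. SLC25A33 had levels of -2.3, -2.13 and -0.99 in Liver, -0.89, -0.79 and -0.47 in Peyer, -0.98, -0.78 and -0.47 in Jejunum and -1.16, -0.79 and -0.6 in Spleen. One Liver array reached the Spleen range. Liver minus Spleen for SLC25A33 was -1.11 ± 0.17 (adjusted p = 5.3e-06), but -0.85 with normexp and -0.84 with the authors' values, neither of which was called. Under both, its calls against Jejunum and Peyer were lost too, at -0.98 and -0.97 with normexp and -0.4 and -0.41 with the authors' values.

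SLC25A28, or mitoferrin 2, imports iron. Its levels were 0.93, 1.1 and 1.21 in Liver, -0.31, -0.06 and 0.53 in Peyer, 0.15, 0.22 and 0.61 in Jejunum and 0.69, 0.97 and 1.23 in Spleen. Liver and Spleen overlapped and differed by 0.13 ± 0.14 (adjusted p = 0.42). Mitoferrin 1, SLC25A37, listed on the array under another name, had tissue means of 7.15 in Liver, 6.92 in Peyer, 7.22 in Jejunum and 7.03 in Spleen.

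Of the carriers related to uncoupling proteins, SLC25A27 was higher in Liver than in each other tissue and SLC25A14 was called in no comparison. SLC25A27, described mainly from brain in other mammals, had levels of 3.85, 4.11 and 4.35 in Liver, 0.43, 0.84 and 1.8 in Peyer, 1.11, 1.75 and 2.22 in Jejunum and -0.29, 0.39 and 0.97 in Spleen. Every Liver array lay above all others, and Liver minus Spleen was 3.72 ± 0.23 (adjusted p = 7.9e-13), with 3.5 and 3.72 at its 2 probes. Its neighbour in the RefSeq annotation of Sscrofa11.1 is CYP39A1, an oxysterol hydroxylase of liver, whose 3 probes gave 3.1, 3.72 and 3.82 for Liver minus Spleen. Whether the probes of the 2 genes share transcripts was not tested. SLC25A14 had levels of -1.11, -0.82 and -0.47 in Liver, -0.81, -0.33 and -0.07 in Peyer, -1.3, -0.98 and -0.82 in Jejunum and -0.9, -0.53 and -0.04 in Spleen.

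**Figure D3:**
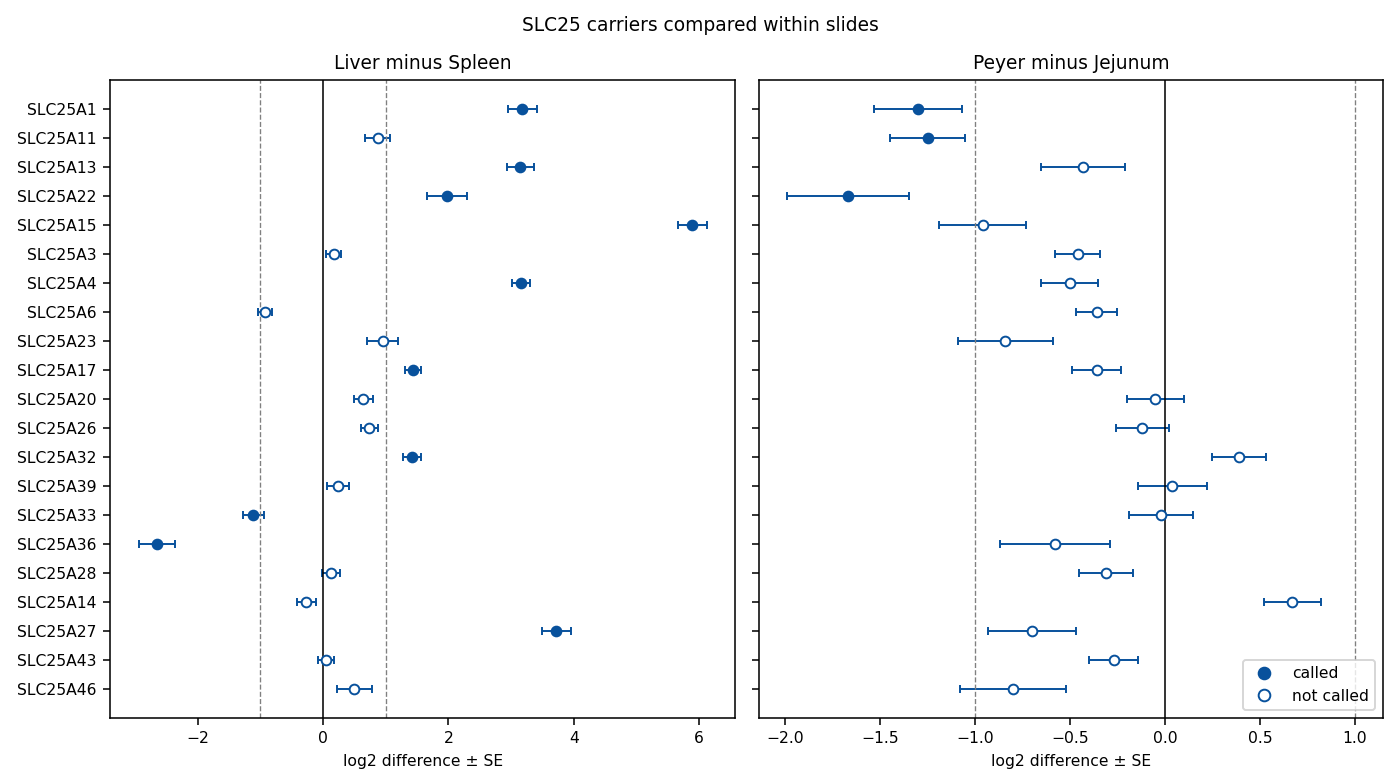
Log2 difference with its SE for 21 SLC25 carriers in Liver minus Spleen (left) and Peyer minus Jejunum (right), with n = 6 per tissue. Filled points were called, dashed lines mark 1 and -1, and the panels have their own horizontal scales. Liver minus Spleen runs from -2.65 to 5.89 and Peyer minus Jejunum from -1.67 to 0.67.

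Peyer was compared with Jejunum within slides, which sets the intestinal wall with a Peyer's patch against the wall without one. Of the 22 carriers 0 were higher, 3 were lower and 19 were not called by limma, and at an unadjusted p under 0.05 the counts were 2 higher and 12 lower. That is 13.6% called, where 13.4% of all genes were called (6.2% higher and 7.19% lower), so the share of carriers lay at the background. The median difference was -0.4 over the carriers and -0.12 over all genes. The 3 carriers called were SLC25A22, SLC25A1 and SLC25A11, which move glutamate, citrate and oxoglutarate.

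SLC25A22 was lower in Peyer at -1.67 ± 0.32 (adjusted p = 0.00042), although the levels given above overlapped. Its second, dimmer probe gave -0.96 and was not called. By animal the difference was -2.02, -2.32, -0.74, -0.35, -2.39 and -2.19 in animals 68, 69, 70, 71, 73 and 75. All 6 animals were below 0, and animals 70 and 71, which shared slide 5, had the smallest differences. With normexp it was -0.77 and with the authors' values -0.98, and neither was called.

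SLC25A1 differed by -1.3 ± 0.23 (adjusted p = 0.00022). Its differences were -1.15, -2.06, -0.77, -0.56, -1.93 and -1.33 in the same order of animals. SLC25A11 differed by -1.25 ± 0.2 (adjusted p = 9.1e-05), and by -1.61, -1.64, -0.83, -0.72, -1.58 and -1.1. SLC25A11 was the only one of the 3 whose Peyer and Jejunum arrays did not overlap. Within slides 4, 5 and 6 the differences of SLC25A22 were -2.17, -0.55 and -2.29, those of SLC25A1 -1.6, -0.66 and -1.63, and those of SLC25A11 -1.63, -0.77 and -1.34.

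Just short of a call were SLC25A15 at -0.96 ± 0.23 (adjusted p = 0.0025), SLC25A23 at -0.84 ± 0.25 (adjusted p = 0.011) and SLC25A46, an outer membrane protein that shapes mitochondria, at -0.8 ± 0.28 (adjusted p = 0.025). SLC25A14 had the highest difference, 0.67 ± 0.15 (adjusted p = 0.0013), and was above 0 in 6 of 6 animals with no overlap. SLC25A32 followed at 0.39 ± 0.14 (adjusted p = 0.027). SLC25A20 showed -0.05 ± 0.15 at the probe that represents it, and its second, dimmer probe was called lower at -1.2. SLC25A27 differed by -0.7 ± 0.23 (adjusted p = 0.017), which was not called. The second, dimmer probe of SLC25A27 was called lower at -1.32, and so was the mean of its probes at -1.01. With SLC25A22, these were the 3 of 13 carriers with several tested probes whose probes were split here.

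Animal 71 showed the smallest differences by their median. The median size of the difference over 22 carriers was 0.17 in animal 71, against 0.4 to 0.6 in the other 5. Without that array SLC25A22 differed by -1.97, SLC25A1 by -1.49 and SLC25A11 by -1.42, SLC25A15 passed the limit at -1.2, and 4 carriers were called in place of 3. Beside these values, 4 of 5 B cell markers were called higher in Peyer, 2 of 6 enterocyte markers lower (SI at -1.28 and SLC5A1 at -1.4) and 4 of 5 smooth muscle markers lower, with list means in the ranges 0.78 to 4.35 in Peyer and 3.04 to 4.47 in Jejunum for smooth muscle. The enterocyte mean ranged from 5.32 to 6.92 in Peyer and from 6.76 to 7.07 in Jejunum, and the B cell mean from -0.31 to 2.96 in Peyer and from -3.39 to -2.58 in Jejunum. The part of these markers in the carrier differences was not tested.

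**Figure D4:**
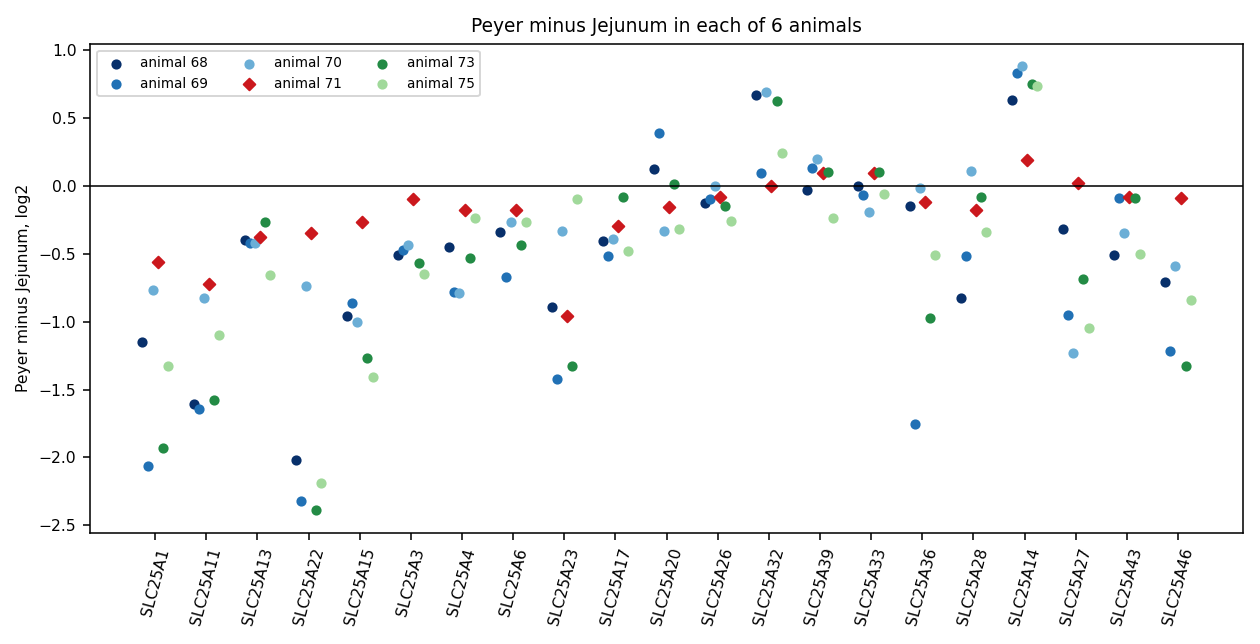
Peyer minus Jejunum log2 difference of 21 SLC25 carriers in each of 6 animals, with red diamonds for animal 71. SLC25A22 runs from -2.39 to -0.35, and its smallest difference is that of animal 71.

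Liver was compared with Jejunum and with Peyer across slides. In Liver minus Jejunum 8 carriers were higher, 3 lower and 11 not called, which is 50%, where 33.6% of all genes were called (16.1% higher and 17.5% lower). The median was 0.54 over the carriers and 0.01 over all genes. Higher were the 7 carriers that led in Liver and SLC25A20, at 1.16 ± 0.15 (adjusted p = 4.8e-07), while SLC25A6, SLC25A33 and SLC25A36 were lower. SLC25A3 was not called, at -0.9 ± 0.12 (adjusted p = 9e-07), but 8 of its 11 probes were called lower. Those 11 probes lay between -1.55 and -0.84. SLC25A3 was called lower with quantile normalization (-1.41), normexp (-1.47) and the mean of its probes (-1.08), but not with the authors' values (-0.59). SLC25A27 was higher by 2.46 ± 0.23 (adjusted p = 1.8e-09). SLC25A36 had the lowest difference, -2.22 ± 0.29 (adjusted p = 4.3e-07). The levels of SLC25A20 were 2.47, 3.13 and 3.26 in Liver, 1.51, 1.84 and 2.16 in Peyer, 1.5, 1.88 and 2.15 in Jejunum and 2.03, 2.39 and 2.7 in Spleen, so Liver overlapped with Spleen but with neither intestinal tissue.

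In the same comparison SLC25A15 was higher by 1.09 ± 0.23 (adjusted p = 0.00028). SLC25A22 and SLC25A11 had their highest means in Jejunum, and their Liver minus Jejunum differences of -0.45 and -0.55 were not called, that of SLC25A22 being 0.11 with the authors' values. This comparison depended on the processing. There were 6 higher and 4 lower with quantile normalization and 5 and 3 with normexp. The authors' values gave 3 higher and 2 lower, and in them SLC25A20 differed by only 0.05, SLC25A17 by 0.39, SLC25A1 by 0.75, SLC25A4 by 0.87 and SLC25A32 by 0.88, none of them called. SLC25A15 was at 0.89 with both quantile normalization and normexp, SLC25A20 at 0.99 and 0.96, and SLC25A1 at 0.99 with normexp, again short of a call.

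In Liver minus Peyer 11 carriers were higher, 3 lower and 8 not called, which is 63.6%, where 40.7% of all genes were called (21.2% higher and 19.4% lower). The median was 0.97 over the carriers and 0.04 over all genes. To the 8 carriers higher in Liver minus Jejunum came SLC25A22 at 1.22 ± 0.32 (adjusted p = 0.0018), SLC25A23 at 1.34 ± 0.25 (adjusted p = 5.5e-05) and SLC25A28 at 1.07 ± 0.14 (adjusted p = 4.5e-07). SLC25A27 was higher by 3.16 ± 0.23 and SLC25A4 by 2.56 ± 0.15, and SLC25A36 and SLC25A33 were lower at -1.64 ± 0.29 and -1.18 ± 0.17. SLC25A23 had levels of -4.22, -3.81 and -2.45 in Liver, -5.54, -4.85 and -4.48 in Peyer, -4.38, -4.03 and -3.83 in Jejunum and -5.37, -4.4 and -4.19 in Spleen. With normexp 8 were higher and 2 lower, and SLC25A22 at 0.5 and SLC25A23 at 0.47 were not called. SLC25A22 was also short of a call at its second probe (0.53) and as the mean of its probes (0.88), and SLC25A28 with median centring (0.92). The authors' values gave 6 higher and 0 lower by limma (12 and 5 at an unadjusted p under 0.05), with SLC25A20 at 0.1, SLC25A28 at 0.17, SLC25A23 at 0.48, SLC25A32 at 0.5, SLC25A17 at 0.8 and SLC25A36 at -0.7. Without the Peyer array of animal 71 SLC25A6 was not called, at -0.97.

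The intestinal tissues were compared with Spleen across slides. In Jejunum minus Spleen 8 carriers were higher, 0 lower and 14 not called, which is 36.4%, where 30.9% of all genes were called (15.4% higher and 15.4% lower), and 4 carriers were lower at an unadjusted p under 0.05. The median was 0.43 over the carriers and -0.14 over all genes. Higher were SLC25A15 by 4.8 ± 0.23, SLC25A22 by 2.44 ± 0.32, SLC25A1 by 2.08 ± 0.23, SLC25A11 by 1.42 ± 0.2, SLC25A27 by 1.26 ± 0.23, SLC25A13 by 1.2 ± 0.22, SLC25A4 by 1.09 ± 0.15 and SLC25A3 by 1.06 ± 0.12, with adjusted p from 2e-14 to 6.4e-05. SLC25A3 was called at all of its 11 probes, at 1.02 to 1.94, but fell short at 0.82 with quantile normalization, 0.89 with normexp and 0.42 with the authors' values. SLC25A4 also fell short, at 0.92 with quantile normalization and 0.88 with normexp, and SLC25A22 at 0.99 with the authors' values.

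In Peyer minus Spleen 1 carrier was higher, 1 lower and 20 not called, which is 9.09%, where 25.2% of all genes were called (10.6% higher and 14.6% lower). SLC25A15 was higher by 3.84 ± 0.23 (adjusted p = 1.9e-12) and SLC25A36 lower at -1.02 ± 0.29 (adjusted p = 0.0046). The call of SLC25A36 was lost in 6 alternatives, with -0.75 under median centring, and its second, dimmer probe gave 0.03. Dimmer probes of SLC25A22 (1.49), SLC25A3 (1.31) and SLC25A20 (-1.68) were called where the probe that represents the gene was not. Of 13 carriers with several tested probes 4 were thus split, and at 9 all probes gave the same call. Median centring gave 4 higher and 0 lower, quantile normalization 2 and 0, the authors' values 4 and 1 and normexp 1 and 0. The median over all probes moved from -0.18 to 0.09 between the 75th percentile scale and median centring in this comparison.

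Called in no comparison were 6 of 22 carriers, among them SLC25A14, SLC25A26, SLC25A39, SLC25A43 and SLC25A46. Over all genes 39% were called in none. At its other probe SLC25A46 was called higher in Liver minus Peyer, at 1.02. The probe that represents it was called there too without the Peyer array of animal 71, also at 1.02. SLC25A39 averaged 4.82 ± 0.48 in Liver, 4.29 ± 0.16 in Peyer, 4.24 ± 0.17 in Jejunum and 4.58 ± 0.36 in Spleen (SD, n = 6). SLC25A43 averaged -0.05 ± 0.16 in Liver, -0.23 ± 0.28 in Peyer, 0.04 ± 0.22 in Jejunum and -0.1 ± 0.2 in Spleen. The levels of SLC25A43 overlapped between all tissues. SLC25A26 averaged 0.74 ± 0.27 in Liver and between 0 and 0.12 in the other tissues. SLC25A46 averaged -1.82 ± 0.26 in Liver, -2.69 ± 0.39 in Peyer, -1.89 ± 0.14 in Jejunum and -2.31 ± 0.87 in Spleen, and its Spleen arrays had the widest spread of any carrier in that tissue. The Spleen arrays of animals 68 and 71 stood at -1.41 and -1.09, against -3.23 to -2.36 in the other animals. They also had the lowest 75th percentiles of the Spleen arrays, 416.9 and 275.4, and whether these values are linked was not tested.

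Animals were tested beside the tissues. The limma F-test of animal passed for 0 of 22 carriers, where it passed for 4.18% of all genes, and 3 carriers had an unadjusted p under 0.05. The median SD over 6 animals was 0.29 in Liver, 0.3 in Peyer, 0.22 in Jejunum and 0.25 in Spleen, against 0.27, 0.35, 0.21 and 0.29 over all genes. The highest SD was that of SLC25A22 in Peyer, at 0.96.

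Related genes that the array lists under other names showed their own tissue patterns. UCP2, an uncoupling protein of the same family, averaged 0.31 in Liver, 3.76 in Peyer, 0.76 in Jejunum and 3.79 in Spleen. It was lower in Liver minus Spleen at -3.48 ± 0.33 (adjusted p = 2.2e-09) and higher in Peyer minus Jejunum by 3.0 ± 0.33 (adjusted p = 1.7e-06), a pattern shown by none of the 22 carriers in the calls above. SLC25A21, the oxodicarboxylate carrier, averaged 0.36 in Liver, -3.06 in Peyer, -2.42 in Jejunum and -4.68 in Spleen, and was higher in Liver minus Spleen by 5.04 ± 0.15. SLC25A24, which carries ATP-Mg and phosphate as SLC25A23 does, averaged -1.86 in Liver, 1.83 in Peyer, 2.38 in Jejunum and 0.74 in Spleen, and was lower in Liver minus Spleen at -2.6 ± 0.15.

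Enzymes that work with the carriers were counted by list in the same fit. Beside these and the lists below, 18.2% of all genes were higher and 21.2% lower in Liver minus Spleen. In Peyer minus Jejunum 6.2% of all genes were higher and 7.19% lower. Of 6 urea cycle and ornithine genes 5 were higher in Liver minus Spleen and 1 was not called, with a median of 6.01. OTC, which makes the citrulline that SLC25A15 carries, was higher by 10.77 ± 0.35, NAGS by 10.37 ± 0.27 and ASS1 by 8.02 ± 0.23, where OTC was well above background on 3 and NAGS on 4 of 6 Spleen arrays. In Peyer minus Jejunum 4 of the 6 were lower, among them ASS1 at -1.26 ± 0.23, ARG1 at -1.18 ± 0.29 and OTC at -1.16 ± 0.35, beside the -0.96 of SLC25A15. In Jejunum OTC averaged 4.26 and NAGS 4.17, and in Spleen they averaged -4.94 and -4.67.

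Of 14 enzymes of the shuttles and of citrate use, 8 were higher in Liver minus Spleen, 1 was lower and 5 were not called, with a median of 1.67. GPT2 was higher by 5.45 ± 0.39, PC by 5.04 ± 0.28 and PCK2 by 4.88 ± 0.35, where GPT2 was well above background on 1 of 6 Spleen arrays. In Peyer minus Jejunum 2 of the 14 were lower, where 7.19% of all genes were. They were GPT2 at -1.48 ± 0.39 and MDH2 at -1.04 ± 0.28, beside the 3 carriers of glutamate, citrate and oxoglutarate. The list's median there was -0.51, against -0.12 over all genes.

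**Figure D5:**
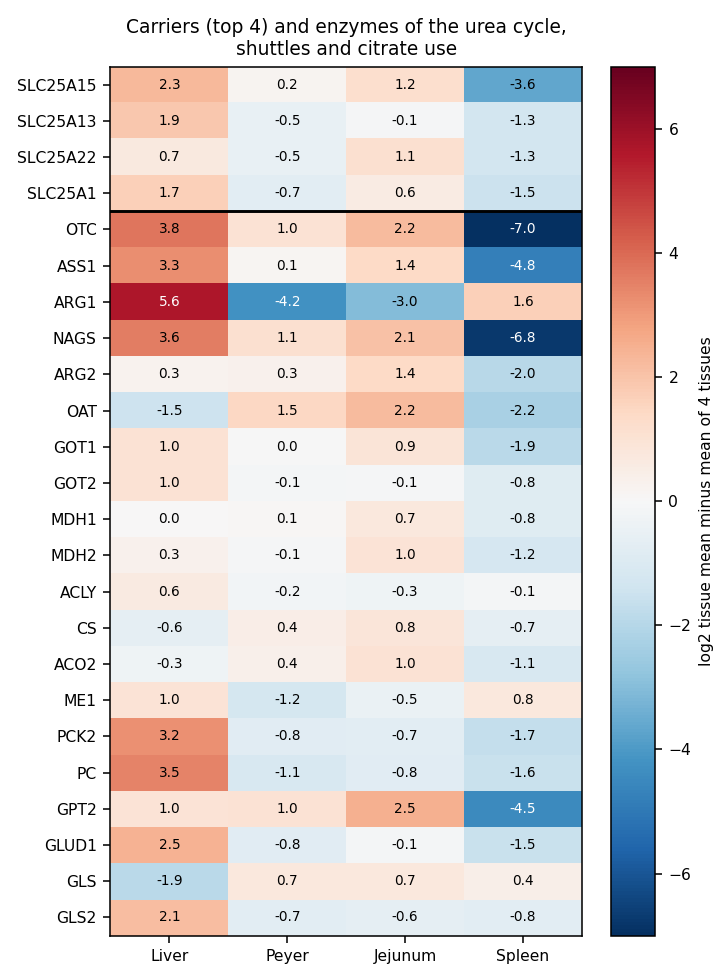
Tissue means of 4 SLC25 carriers and 20 enzymes of the urea cycle, the shuttles and citrate use, each as its log2 mean minus the average of its 4 tissue means. SLC25A15 runs from 2.26 in Liver to -3.64 in Spleen, and OTC from 3.77 to -7.0.

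Of 13 genes of carnitine transport and fatty acid oxidation, which act around SLC25A20, 11 were higher in Liver minus Spleen, 1 lower and 1 not called, with a median of 1.55, while SLC25A20 itself was not called. ACADM, a medium-chain acyl-CoA dehydrogenase, was higher by 3.5 ± 0.21. In Peyer minus Jejunum 0 of the 13 were called by limma, with a median of -0.45.

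Mitochondrial folate and glycine genes were listed beside SLC25A32, since some of them use the folate it carries. Of 7 such genes 5 were higher in Liver minus Spleen, 1 was lower and 1 was not called, with a median of 3.14. The lower one, named after its value was seen, was MTHFD1L at -1.85 ± 0.16 (adjusted p = 6.6e-10). SHMT2 was higher by 6.98 ± 0.4, with 2 of 6 Spleen arrays well above background, and AMT by 5.48 ± 0.22. GLDC was well above background on 0 Spleen arrays and was at least 17.3-fold higher in Liver, a bound taken against the lowest signal well above background on each Spleen array (adjusted p = 6.6e-11). Of 13 genes of haem and iron-sulfur synthesis, for which the mitoferrins supply iron, 8 were higher and 5 not called, led by ALAD at 4.05 ± 0.15, GLRX5 at 3.61 ± 0.12 and CPOX at 3.05 ± 0.14.

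ATP synthase uses the phosphate and ADP that SLC25A3 and the ADP/ATP carriers bring in. Of its 15 subunits 3 were higher in Liver minus Spleen and 12 not called, with a median of 0.67. That share lay near the background, where 18.2% of all genes were higher. In Jejunum minus Spleen 5 subunits were higher, where 15.4% of all genes were. ATP5F1 was higher in Liver minus Spleen by 1.19 ± 0.09, ATP5H by 1.11 ± 0.11 and ATP5G3 by 1.09 ± 0.13. Of 3 porins, the channels of the outer membrane, VDAC1 alone was called in Liver minus Spleen, at 1.77 ± 0.17. VDAC3 was called in other comparisons, such as Liver minus Jejunum at -1.94 ± 0.13. Among 5 genes of coenzyme A synthesis PANK1 was higher in Liver minus Spleen by 4.75 ± 0.18, COASY by 1.08 ± 0.11, and PPCDC lower at -1.37 ± 0.13.

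Of 6 regulators of mitochondrial biogenesis 3 were higher in Liver minus Spleen and 3 not called. PPARGC1A, a coactivator of mitochondrial genes, was higher by 4.13 ± 0.28, PPARA by 3.38 ± 0.27 and ESRRA by 1.12 ± 0.15. PPARGC1A was the 1 regulator called in Peyer minus Jejunum, lower at -1.28 ± 0.28 (adjusted p = 0.0011). MPC2, a subunit of the mitochondrial pyruvate carrier outside the SLC25 family, was higher in Liver minus Spleen by 2.32 ± 0.18 and MTCH2, a divergent family member of the outer membrane, by 1.56 ± 0.14.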

How the data were processed

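Signals in the deposited files of the scanner are an intensity on a linear scale, computed with Agilent Feature Extraction 10.10.1.1 per the file headers and background-subtracted, and not scaled between arrays. The log2 of the signal minus the 75th percentile of its array was used. The authors also deposited a normalized table of log2 values for 44600 probes, whose sorted columns are identical, and limma is named in the submitters' processing notes. The labels and headers do not say how it was centred, so it served as an alternative.

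Of 60305 probes 42650 passed the background filter and had no outlier flag (136 probes had one). They were fitted together with limma 3.58.1 in R 4.3.3 (lmFit, eBayes, tissue as the only term, 24 arrays), with Benjamini-Hochberg adjustment over all of them, and checked on simulated data. Replicate numbers are animal numbers per the labels. To check this, the tissue mean of each probe was subtracted, and what remained was correlated between arrays of different tissues. For the 36 same-animal pairs r averaged 0.17 (26 over 0.1, lowest -0.021), against -0.034 for 180 other pairs. These values are not the r across probes given above for the arrays of animal 71, which kept the tissue means.

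Of the 58 member probes 28 had an accession in the RefSeq table of Sscrofa11.1, and all 28 gave the same symbol. That table served for names and for which genes lie next to each other, and no coordinates are given. The members, partner lists and markers were chosen with earlier results of these data known. Of the 24 member genes 1 is counted but not reported here by name. Levels by array are given for called members with extreme differences and for those leading in a tissue, and outside that rule for SLC25A14 and SLC25A23, and up to 3 genes per list are named by the size of their difference.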

Additional observations from a re-analysis of the deposited data

Results flagged for a closer look

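By a Dixon gap test, 6 values stood far from the other 5 of their tissue, out of 88 groups of a carrier in a tissue (6.82%), where chance gives about 1 in 20. SLC25A15 was -2.95 in the Spleen of animal 71, with the next array at -2.43. SLC25A20 was 2.47 in the Liver of animal 70, with the next at 3.04. SLC25A23 was -5.37 in the Spleen of animal 68, with the next at -4.57. SLC25A32 was -0.6 in the Liver of animal 75, with the next at -0.01. SLC25A39 was 5.72 in the Liver of animal 68, with the next at 4.84. SLC25A46 was -1.32 in the Liver of animal 73, with the next at -1.78. The Peyer array of animal 71 gave 0 of these values.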

How the results depend on the processing

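With animal as a replicate block, which pairs the tissues of an animal, the counts of carriers called were 10 in Liver minus Spleen, 3 in Peyer minus Jejunum, 11 in Liver minus Jejunum, 14 in Liver minus Peyer, 2 in Peyer minus Spleen and 8 in Jejunum minus Spleen, and all 132 of 132 calls stayed on their side of the limit. The same held for all 132 with no background filter, with slide as a random block and with the 12 arrays alone. In Peyer minus Jejunum, limma called 0 carriers on slide 4 alone (8 at an unadjusted p under 0.05), 0 on slide 5 alone (0), 5 on slide 6 alone and 0 with treat, a test against a difference of 1 (1). Fewer arrays enter a single slide. With treat the counts were 6 in Liver minus Jejunum, 7 in Liver minus Peyer, 1 in Peyer minus Spleen and 3 in Jejunum minus Spleen. With the authors' values they were 5 in Liver minus Jejunum, 6 in Liver minus Peyer and 5 in Peyer minus Spleen, and 3 carriers led in Liver (SLC25A13, SLC25A15 and SLC25A27) in place of 7. Peyer minus Spleen gave 4 with median centring, 1 with normexp and 1 with array weights. Without the Peyer array of animal 71, 129 of 132 calls stayed, with 4 in Peyer minus Jejunum and 14 in Liver minus Peyer. Ignoring letter case, an alternative chosen after seeing the data, gave 26 genes with a value and counts of 11, 3, 12, 14, 3 and 9 in the order above. Apart from the values named, the cause of these changes was not tested.

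Across probes, the authors' differences followed the scanner's with r = 0.965 for Liver minus Spleen and 0.961 for Peyer minus Jejunum on shared slides, and 0.71, 0.696, 0.318 and 0.559 for Liver minus Jejunum, Liver minus Peyer, Peyer minus Spleen and Jejunum minus Spleen. SLC25A22 and SLC25A23 lie near background in Spleen.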
